A study of Rattus norvegicus with 16 samples.

Results

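G protein-coupled receptors of the pancreatic islet were followed in cultured primary islets of male Wistar rats aged 8 weeks. The receptors are those for incretins (Glp1r, Gipr), glucagon (Gcgr), fatty acids (Ffar1), autonomic transmitters (Adra2a, Chrm3), somatostatin (Sstr2, Sstr3) and purines (P2ry1). They were taken by gene symbol, and every probe set annotated to a symbol was used: 8 of the 9 genes had at least 1, giving 11 of the 31042 probe sets that are not controls, and Ffar1 was not analysed here. The 8 measured receptors are among 14217 genes tested, each represented by its brightest probe set.

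Islets transduced with AdNkx6.1, an adenovirus that delivers the beta cell transcription factor Nkx6.1 (n = 5 arrays), were set against islets given Adβgal, a control adenovirus that delivers β-galactosidase from bacteria (n = 6), and against islets without virus (untreated, n = 5). The labels give 1 approximate virus concentration for both viruses, 18 h of exposure and collection at 48 h, in medium with 8 mM glucose and 10% serum. Which islet cells took up virus, how many rats stand behind an array and which arrays share an islet isolation are not given in the sources used here. The titles call the arrays biological replicates, and since nothing says that they came from separate animals or cultures, the p-values measure only the spread between these arrays. Whole islets were measured, so fewer cells of a type and less RNA per cell cannot be told apart.

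Receptors of this class sit in the plasma membrane of islet cells and pass a signal from an outside ligand to a G protein. Receptors coupled to Gs raise cyclic AMP and amplify insulin release at high glucose, those coupled to Gi lower it and restrain release, and those coupled to Gq act through phospholipase C and calcium stores. The GLP-1 receptor is the target of incretin drugs, while noradrenaline acting on the alpha-2A adrenoceptor is a classical brake on insulin secretion.

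The promoter windows of 3 receptors that differ in pattern are shown. Sstr2 was the only receptor with a positive change for AdNkx6.1 against Adβgal, and Chrm3 the only one called in that comparison. Glp1r was lower with either virus than untreated, as were Adra2a and Sstr3. Each window runs from 250 bases before to 50 bases after the annotated start, 5′ to 3′, from RefSeq on build GRCr8. The Chrm3 window is set on a start inside the annotated gene, which begins at base 64696549. Capitals mark TGACG, the core of the cyclic AMP response element, on either strand.
Sstr2 promoter window, chr10:99163103-99163402, plus strand: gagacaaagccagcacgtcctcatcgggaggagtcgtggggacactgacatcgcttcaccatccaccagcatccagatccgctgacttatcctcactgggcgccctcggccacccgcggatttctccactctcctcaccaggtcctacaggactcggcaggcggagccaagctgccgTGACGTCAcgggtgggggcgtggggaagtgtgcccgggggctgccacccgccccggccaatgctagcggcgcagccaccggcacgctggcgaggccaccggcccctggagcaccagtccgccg
Chrm3 promoter window, chr17:64696677-64696976, plus strand: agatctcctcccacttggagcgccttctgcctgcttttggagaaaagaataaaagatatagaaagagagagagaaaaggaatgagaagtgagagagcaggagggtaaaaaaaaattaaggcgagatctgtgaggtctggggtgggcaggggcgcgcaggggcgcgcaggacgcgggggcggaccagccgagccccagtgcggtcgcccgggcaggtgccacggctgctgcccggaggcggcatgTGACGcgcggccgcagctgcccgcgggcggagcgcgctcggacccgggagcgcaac
Glp1r promoter window, chr20:8973143-8973442, plus strand: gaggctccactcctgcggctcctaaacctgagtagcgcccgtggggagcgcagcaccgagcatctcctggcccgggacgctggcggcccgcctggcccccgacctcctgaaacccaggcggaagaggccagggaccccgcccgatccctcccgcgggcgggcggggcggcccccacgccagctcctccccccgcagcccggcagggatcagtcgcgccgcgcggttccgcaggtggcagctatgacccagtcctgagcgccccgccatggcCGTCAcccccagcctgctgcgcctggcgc
RefSeq windows were found for 7 of the 8 measured receptors, the exception being Gipr. TGACG was searched on both strands and was met in 3 of these 7, the windows printed, and not in those of Gcgr, Adra2a, Sstr3 and P2ry1. In the Glp1r window the match lies after the annotated start, right behind an ATG, where the letters can be read as coding sequence. Adra2a and Sstr3, lower with either virus like Glp1r, thus lacked it, and a link of these letters to a pattern was not tested. TGACG was met in 21.2% of 33469 rat promoter windows of this length. The full palindrome TGACGTCA, which holds TGACG on both strands and so counts as 2 overlapping matches, was met in 1.83% of windows and among the receptors in that of Sstr2. The homeodomain core TAATTA, present in 5.36% of windows, was in 0 of the 7. A match is a description of these letters and no match says nothing of a factor.

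The arrays differed little in brightness, with median intensities of 264.9 to 296.4, but the difference went with the groups. Untreated arrays had 264.9 to 280.8, Adβgal arrays 276.4 to 292.4 and AdNkx6.1 arrays 281.8 to 296.4. Counts with arrays centred on their median are given further below. The islet label was borne out by endocrine hormones, since Ins1, Ins2 and Gcg had mean log2 intensities of 14.59 to 14.82 in every group. Adβgal replicates 4, 5 and 6 stood apart: their summed intensity over 11 of 13 listed acinar markers was 54541 to 79413. That sum was 18362 to 41174 in Adβgal replicates 1, 2 and 3, 20284 to 45705 with AdNkx6.1 and 23036 to 35744 untreated. Their sum over 10 of 11 leukocyte markers was 6152 to 8834, against 4515 to 4742 in the other 3 Adβgal arrays. It was 3854 to 6126 with AdNkx6.1 and 4562 to 5957 untreated, so the lowest of the 3 arrays was close to these. The main counts of called genes below are therefore also given without these 3 arrays. The 3 groups share 1 estimate of the spread in the fit. Leaving out Adβgal arrays thus keeps each change of AdNkx6.1 from untreated as it was, and alters only its SE and adjusted p. The Nkx6-1 probe set averaged 11.43 ± 0.17 with AdNkx6.1, 11.90 ± 0.19 with Adβgal and 12.23 ± 0.09 untreated. Whether it covers the delivered sequence is not known, so it is no check of the labels.

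Most receptors were lower with AdNkx6.1 than untreated, and 4 of 8 were lower with Adβgal. With AdNkx6.1 against untreated, 6 of 8 receptors were lower past the threshold, a limma adjusted p of 0.05 over all 14217 genes: Glp1r, Gcgr, Adra2a, Chrm3, Sstr3 and P2ry1. In that comparison 30.7% of all genes were called, 13.8% lower. With Adβgal against untreated 4 of 8 were lower, namely Glp1r, Adra2a, Sstr2 and Sstr3, where 7.01% of genes were called and 4.17% were lower. The 2 viruses differed in 1 of 8 receptors, Chrm3, which was lower with AdNkx6.1 in a comparison where 25% of genes were called and 8.48% were lower. No receptor was called higher in any of the 3 comparisons, where 16.9%, 2.84% and 16.6% of genes were higher in the order given. At an unadjusted p under 0.05, limma put 1 (Sstr2) higher with AdNkx6.1 than with Adβgal, and 0 in the other 2 comparisons.

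The median log2 change of the 8 receptors was -0.62 for AdNkx6.1 against untreated, -0.57 when Adβgal was set against untreated, and -0.07 between AdNkx6.1 and Adβgal. Over all genes these medians were -0.01, -0.04 and 0.02 in the same order. Without Adβgal replicates 4, 5 and 6 the counts of lower receptors were 6, 2 and 3, and the medians -0.62, -0.33 and -0.21. Of all genes 20.5%, 2.16% and 10.4% were then lower. On 11 probe sets the counts called were 7 for AdNkx6.1 against untreated, all lower (20.8% of all probe sets called, 10.2% higher and 10.6% lower). They were 6 for Adβgal against untreated, all lower (8.65%, 4.58% higher and 4.07% lower), and 1, lower, for AdNkx6.1 against Adβgal (20%, 11% higher and 8.98% lower).

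Separation of the arrays gave a like picture for the brightest probe sets. Every AdNkx6.1 array lay below every untreated array for 6 of 8 receptors, against 14.6% of all genes, and above for 0, against 17.4%. Every Adβgal array lay below every untreated array for 3 receptors, against 4.83% of genes, and above for 0, against 2.05%. AdNkx6.1 and Adβgal arrays overlapped for all 8 receptors, where 3.78% of genes had every AdNkx6.1 array below and 10.4% every AdNkx6.1 array above. The comparisons with untreated islets share the untreated arrays, and those with Adβgal share the Adβgal arrays, so the counts are not independent of each other.

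**Figure D1:**
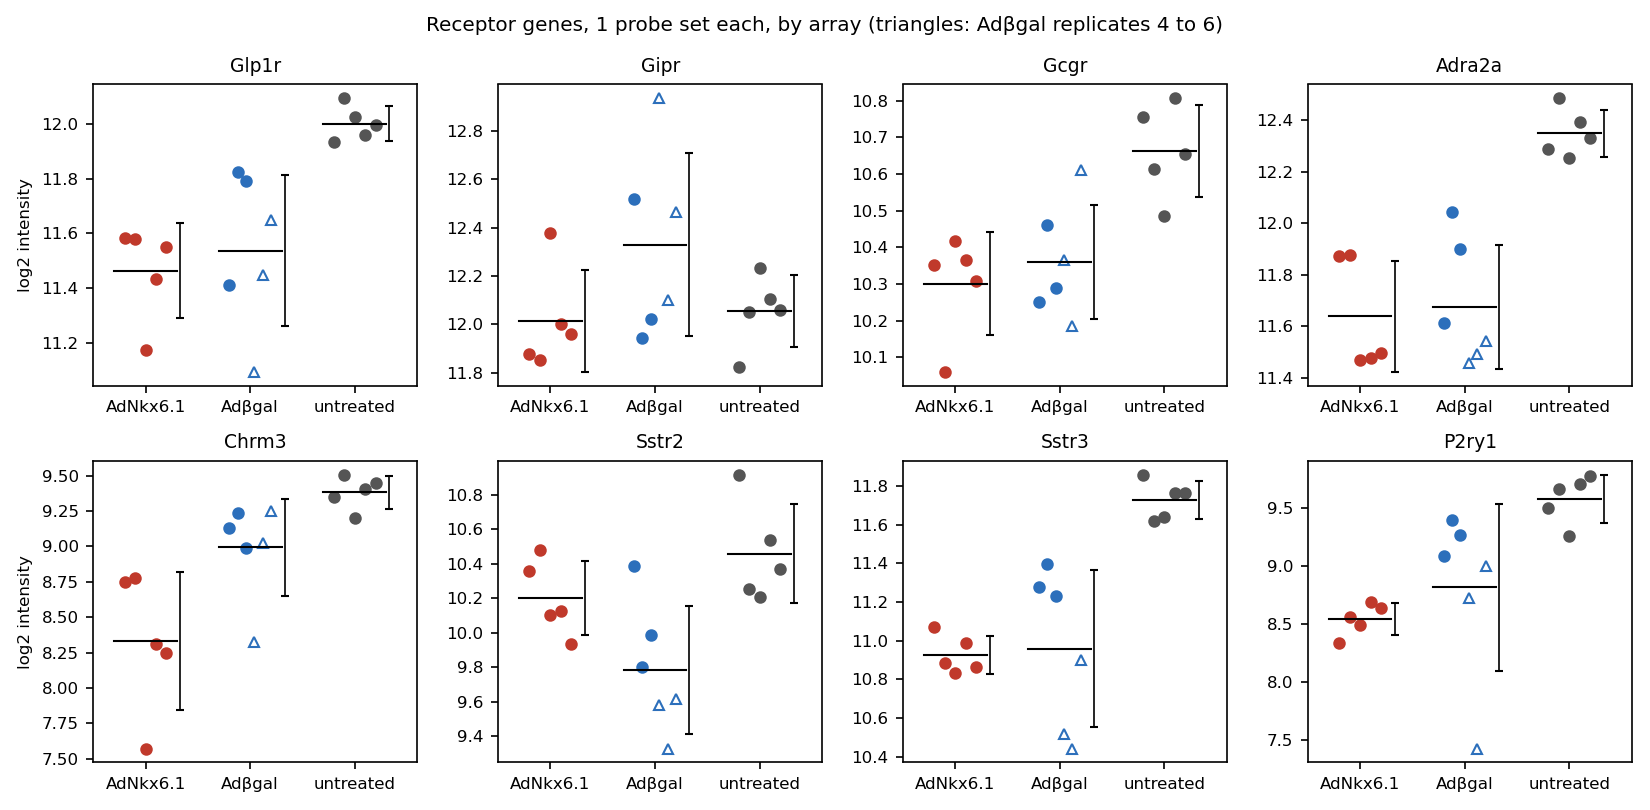
The log2 intensity (vertical axis, its own scale for each gene) of the brightest probe set of 8 receptors on each array, with group means as lines and SD as bars. Open triangles are Adβgal replicates 4 to 6. For Glp1r, Adra2a and Sstr3 every AdNkx6.1 and every Adβgal array lay below every untreated array, whereas the groups overlapped for Gipr.

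Among the Gs-coupled receptors, Glp1r was lower with either virus than untreated, Gcgr was called lower with AdNkx6.1, and Gipr was not called. Glp1r, the receptor for GLP-1, had log2 intensities of 11.58, 11.58, 11.18, 11.43 and 11.55 with AdNkx6.1. With Adβgal they ran from 11.09 over a median of 11.55 to 11.83, and untreated they were 11.93, 12.09, 12.03, 11.96 and 11.995. Every array with either virus lay below the lowest untreated array, and the virus groups overlapped. Glp1r was 1.45-fold lower with AdNkx6.1 than untreated (log2 change -0.54 ± 0.12 SE, adjusted p = 0.00338) and 1.38-fold lower with Adβgal than untreated (-0.46 ± 0.12, adjusted p = 0.0268). The first call held under every setting tried, with adjusted p of 0.00056 to 0.0107 when any 1 array was left out. The second was lost without untreated replicate 2, 3, 4 or 5 (adjusted p of 0.0528 to 0.0725), with only these 2 groups fitted (0.0611), with the replicate number as a block (0.0638) and without Adβgal replicates 4, 5 and 6 (-0.33, adjusted p = 0.113). AdNkx6.1 and Adβgal differed by -0.07 with a 95% interval of -0.32 to 0.18 (adjusted p = 0.703).

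Gipr, the receptor for the incretin GIP, was called in no comparison. Its values were 11.88, 11.85, 12.38, 12.003 and 11.96 with AdNkx6.1. With Adβgal the lowest was 11.94, the median 12.28 and the highest 12.93, and untreated they were 11.82, 12.05, 12.23, 12.10 and 12.06. AdNkx6.1 replicate 3 and Adβgal replicates 1, 4 and 6 were above all untreated arrays, AdNkx6.1 replicates 1 and 2 were below all Adβgal arrays, and the 3 groups overlapped. The log2 change was -0.04 (95% interval -0.39 to 0.31) for AdNkx6.1 against untreated, 0.28 (-0.06 to 0.61) for Adβgal set against untreated, and -0.32 (-0.65 to 0.02) between AdNkx6.1 and Adβgal, with adjusted p of 0.884, 0.29 and 0.161. Whether the change of Gipr differs from that of Glp1r was not tested.

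Gcgr, through which glucagon acts on beta cells, showed a smaller difference. Its values were 10.35, 10.06, 10.42, 10.37 and 10.31 with AdNkx6.1, 10.19 to 10.61 with a median of 10.33 for Adβgal, and 10.75, 10.61, 10.49, 10.81 and 10.65 untreated. All AdNkx6.1 arrays lay below all untreated arrays, and 5 of 6 Adβgal arrays did. The fall with AdNkx6.1 against untreated was 1.29-fold (-0.36 ± 0.09, adjusted p = 0.00746). For Adβgal against untreated the change was -0.30 ± 0.09 and missed the threshold at adjusted p = 0.0517. It passed with array weights (0.0339), with arrays centred on their median (0.0159), with dim genes left out (0.0312), and in 4 of the 16 fits that left out 1 array, those without Adβgal replicate 2 (0.042) or 6 (0.03), untreated replicate 3 (0.0427) or AdNkx6.1 replicate 2 (0.0423). The virus groups differed by -0.06 (95% interval -0.25 to 0.13).

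Of the Gi-coupled receptors, Adra2a and Sstr3 were lower with either virus, and Sstr2 was called lower with Adβgal. Adra2a, the alpha-2A adrenoceptor, had 11.87, 11.88, 11.47, 11.48 and 11.50 with AdNkx6.1. With Adβgal it ran from 11.46 over a median of 11.58 to 12.04, and untreated it was 12.29, 12.49, 12.25, 12.39 and 12.33. Both virus groups lay wholly below the untreated arrays. The changes were -0.71 ± 0.12 for AdNkx6.1 against untreated (1.64-fold lower, adjusted p = 0.000348) and -0.68 ± 0.12 for Adβgal against untreated (1.6-fold lower, adjusted p = 0.00358). Both calls held under every setting tried, with -0.50 and adjusted p = 0.0406 for Adβgal without its replicates 4, 5 and 6. AdNkx6.1 against Adβgal gave -0.04 (95% interval -0.28 to 0.21). The dimmer probe set of Adra2a differed alike in the fit over all probe sets, by -0.95 ± 0.18 with AdNkx6.1 (adjusted p = 0.00104) and -0.96 ± 0.17 with Adβgal (adjusted p = 0.00434) against untreated, and again no untreated array was overlapped.

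Sstr3, a somatostatin receptor known from the primary cilia of rodent beta cells, had 11.07, 10.89, 10.83, 10.99 and 10.87 with AdNkx6.1. Its Adβgal arrays ran from 10.44 over a median of 11.06 to 11.40, and the untreated arrays were 11.86, 11.62, 11.64, 11.76 and 11.76. All virus arrays lay below all untreated arrays. The change was -0.80 ± 0.16 for AdNkx6.1 against untreated (1.74-fold lower, adjusted p = 0.00114) and -0.77 ± 0.15 for Adβgal against untreated (1.71-fold lower, adjusted p = 0.00755). Both calls held under every setting tried. The Adβgal arrays were split: replicates 1, 2 and 3 (11.28, 11.40 and 11.23) lay above all AdNkx6.1 arrays, and replicates 4 and 5 (10.51 and 10.44) below all of them, with replicate 6 at 10.90. AdNkx6.1 against Adβgal was -0.03 (adjusted p = 0.908) with all arrays and -0.37 ± 0.08 (adjusted p = 0.0026) without Adβgal replicates 4, 5 and 6. Without these arrays the change of Adβgal against untreated was -0.43 (adjusted p = 0.0116). The high acinar and leukocyte markers of the 3 arrays are given above, and their part in the Sstr3 values was not tested.

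Sstr2, a somatostatin receptor prominent in rodent alpha cells, had 10.36, 10.48, 10.11, 10.13 and 9.94 with AdNkx6.1. The Adβgal arrays were at 9.33 to 10.39 with a median of 9.71, and the untreated arrays at 10.92, 10.25, 10.21, 10.54 and 10.37. Adβgal replicate 1 overlapped the untreated arrays and the other 5 lay below them, while AdNkx6.1 arrays overlapped both other groups. It was 1.6-fold lower with Adβgal than untreated (-0.67 ± 0.17, adjusted p = 0.0281). The difference of AdNkx6.1 from untreated, -0.26 with a 95% interval of -0.64 to 0.12, did not pass (adjusted p = 0.312). AdNkx6.1 was above Adβgal by 0.42 (95% interval 0.05 to 0.78), which did not pass after adjustment (unadjusted p = 0.0276, limma adjusted p = 0.0896) and passed only without Adβgal replicate 1 (0.54, adjusted p = 0.0159) among the settings tried.

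The second Sstr2 probe set gave changes close to these. Over all probe sets it was -0.68 ± 0.17 for Adβgal against untreated (adjusted p = 0.0195) and 0.46 ± 0.17 for AdNkx6.1 against Adβgal (adjusted p = 0.061). The call of Sstr2 for Adβgal against untreated was lost without Adβgal replicate 6 or untreated replicate 1, 4 or 5 (adjusted p of 0.055 to 0.0743) and with only these 2 groups fitted (0.0715). Without Adβgal replicates 4, 5 and 6 the change was -0.40 (adjusted p = 0.207).

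**Figure D2:**
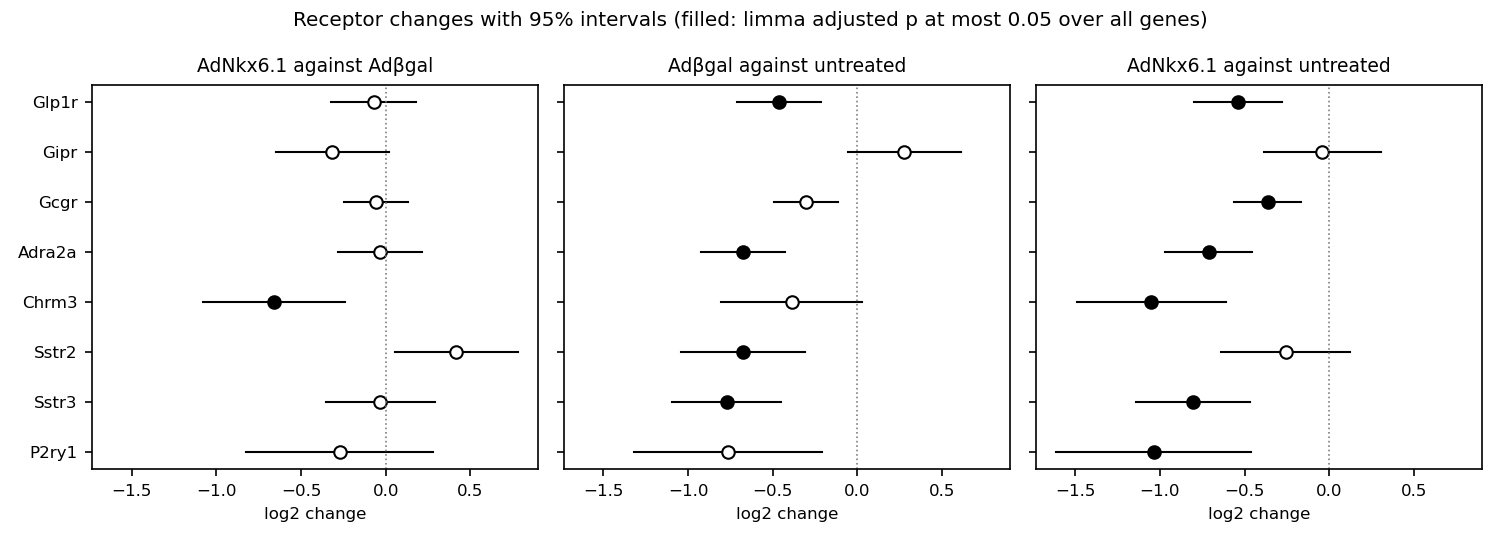
Log2 changes (horizontal axis) of the 8 receptors with 95% intervals in the 3 comparisons, filled where the limma adjusted p over all genes was at most 0.05. Chrm3 is filled for AdNkx6.1 against Adβgal at -0.66, and 6 receptors are filled for AdNkx6.1 against untreated, all below 0.

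The Gq-coupled receptors Chrm3 and P2ry1 had the largest falls among the 8 receptors with AdNkx6.1 against untreated. Chrm3, the M3 receptor for acetylcholine from parasympathetic nerves, had 8.75, 8.78, 7.57, 8.31 and 8.25 with AdNkx6.1. With Adβgal it ran from 8.33 over a median of 9.08 to 9.25, and untreated it was 9.35, 9.51, 9.20, 9.40 and 9.45. All AdNkx6.1 arrays lay below all untreated arrays and 3 of 5 lay below all Adβgal arrays. Chrm3 was 2.07-fold lower with AdNkx6.1 than untreated (-1.05 ± 0.21, adjusted p = 0.00109) and 1.58-fold lower with AdNkx6.1 than with Adβgal (-0.66 ± 0.20, adjusted p = 0.0216). Adβgal against untreated gave -0.39 (95% interval -0.81 to 0.03, adjusted p = 0.233).

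The call of Chrm3 between the viruses depended on single arrays and on the probe set. Leaving out AdNkx6.1 replicate 3 (-0.47, adjusted p = 0.0508) or replicate 5 (-0.64, adjusted p = 0.0509) ended its call, as did a fit of these 2 groups alone (adjusted p = 0.0651). The dimmer probe set gave -0.07 ± 0.30 (adjusted p = 0.897) with all arrays. In the same fit without Adβgal replicates 4, 5 and 6 the dimmer probe set was -0.65 ± 0.20 (adjusted p = 0.0308) and the brighter one -0.79 ± 0.21 (adjusted p = 0.0187). With the mean of both probe sets the change was -0.37 and was not called (adjusted p = 0.248). Against untreated the dimmer probe set was -0.60 ± 0.32 with AdNkx6.1 (adjusted p = 0.209), with all AdNkx6.1 arrays below all untreated ones.

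P2ry1, a receptor for ADP and ATP, had 8.34, 8.56, 8.50, 8.69 and 8.64 with AdNkx6.1. The Adβgal values ran from 7.42 over a median of 9.045 to 9.40, and the untreated values were 9.50, 9.67, 9.26, 9.71 and 9.78. The value of 7.42 was Adβgal replicate 5, below every other array, and the other 5 Adβgal arrays lay above all AdNkx6.1 arrays. P2ry1 was 2.05-fold lower with AdNkx6.1 than untreated (-1.04 ± 0.27, adjusted p = 0.00853), a call that held under every setting in which the gene was tested. Adβgal against untreated gave -0.76 ± 0.26 and missed the threshold (adjusted p = 0.0836). AdNkx6.1 against Adβgal gave -0.27 ± 0.26 (adjusted p = 0.491). Without Adβgal replicate 5 the 2 changes were -0.49 (adjusted p = 0.0289) and -0.55 (adjusted p = 0.00383) and both calls were then made. The first was also made without Adβgal replicate 2 (adjusted p = 0.0437), with array weights (0.0499) and with arrays centred on their median (0.0441), and the second with array weights (0.00976). Without Adβgal replicates 4, 5 and 6 AdNkx6.1 was lower than Adβgal by 0.71 on the log2 scale (-0.71 ± 0.12, adjusted p = 0.000619).

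**Figure D3:**
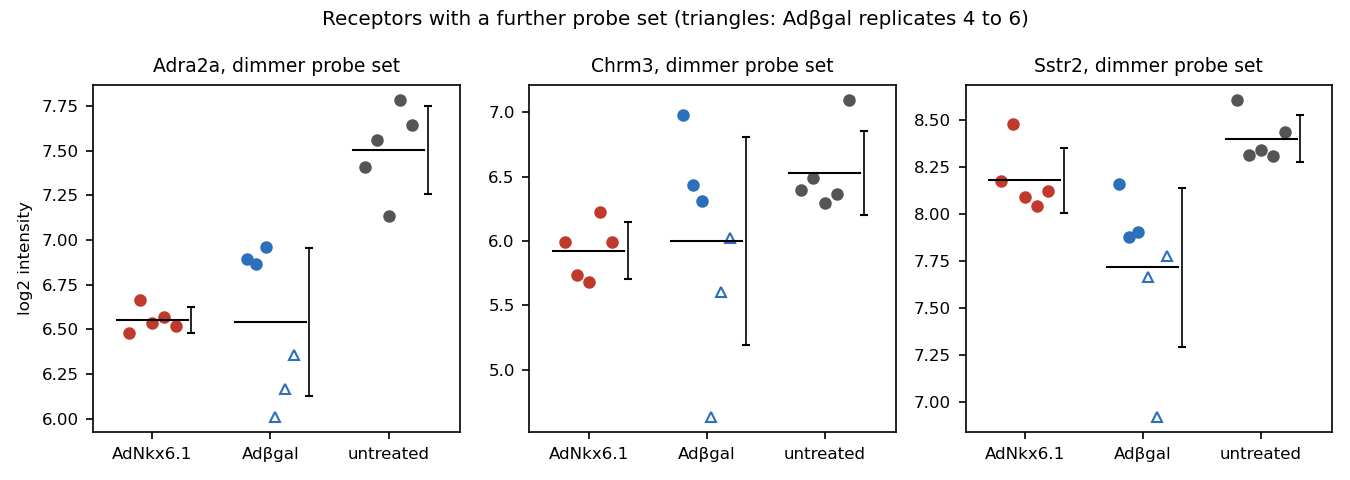
Log2 intensity (vertical axis) by array of the dimmer probe sets of Adra2a, Chrm3 and Sstr2, with group means as lines and SD as bars. For Adra2a the AdNkx6.1 arrays (6.48 to 6.66) and Adβgal arrays (6.01 to 6.96) sit below the untreated arrays (7.14 to 7.78), and for Chrm3 the Adβgal arrays spread from 4.64 to 6.98.

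Some cell type markers were also lower with AdNkx6.1. With AdNkx6.1 against untreated, 5 of 7 measured beta cell markers were lower (among them the glucose transporter gene Slc2a2, at 13.09 ± 0.11 against 13.52 ± 0.10), with a median change of -0.25, and with Adβgal against untreated 0 of 7 were called (4 lower at an unadjusted p under 0.05, limma), with a median of -0.15. Of all genes 13.8% and 4.17% were lower in these 2 comparisons. The summed intensity of the 7 beta cell markers was 93588 to 110262 with AdNkx6.1, 104454 to 113305 with Adβgal and 111607 to 125474 untreated. For AdNkx6.1 against Adβgal, the comparison of the Chrm3 call, 2 of 7 beta, 3 of 5 alpha, 4 of 6 delta and PP, 2 of 11 acinar, 1 of 10 leukocyte and 3 of 12 stellate, fibroblast and smooth muscle markers were lower. Of the 5 duct markers 2 were higher there, and of the 4 neuron and Schwann cell markers 2. Without Adβgal replicates 4, 5 and 6 the lower counts were 2, 3, 3, 1, 0 and 0, and the higher counts 2 and 1. Of all genes 8.48% were lower and 16.6% higher in this comparison, and 10.4% and 18% without those arrays. The leukocyte share with all arrays, 10%, was near that of all genes. Of 5 measured alpha cell markers, 3 were lower with AdNkx6.1 than untreated (4 without those arrays), beside 13.8% and 20.5% of all genes. Gcg itself was 14.59 ± 0.11 with AdNkx6.1 against 14.61 ± 0.09 untreated. Delta and PP cell markers summed to 47385 to 56318 with AdNkx6.1, 59076 to 67563 with Adβgal and 62342 to 69419 untreated. No marker of these 3 lists was at 0, the dimmest being Ghsr at a mean log2 intensity of 4.40 over all arrays. The part of cell makeup in the receptor values was not tested.

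For each receptor called in a comparison, the genes with the most similar profile were sought, by the root mean square difference of log2 values centred on each gene's mean over the 16 arrays. Adra2a lay nearest to Nkx2-2, a transcription factor of beta cells, at 0.116, and next to Dpy19l3 at 0.119, against a median of 0.41 over all genes. P2ry1 lay nearest to Gjd2, which encodes the gap junction protein connexin 36 of beta cells, at 0.15 and next to Tnfrsf11b at 0.20, against 0.64, and Glp1r to Dact2 at 0.09 and Efr3b, which anchors a lipid kinase at the plasma membrane, at 0.10, against 0.35. Sstr3 lay nearest to Tmem215 (0.16) and Vav3 (0.16), Chrm3 to Smad9 (0.19) and Sema3e (0.21), Gcgr to Tubgcp6 (0.11) and Cfap418 (0.13), and Sstr2 to Cfap276 and Cactin-ps2 (both 0.19). These are likenesses of profiles over arrays that share group means, and carry no test. Nkx2-2 itself was lower with AdNkx6.1 than untreated (-0.77, adjusted p = 1.04e-05) and with Adβgal than untreated (-0.55, adjusted p = 0.00217).

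The signalling lists that follow are read beside all genes. Of these, 16.9% were higher and 13.8% lower for AdNkx6.1 against untreated, and 16.6% higher and 8.48% lower against Adβgal. When Adβgal replicates 4, 5 and 6 were left out, the shares were 22.7% and 20.5% against untreated, and 18% and 10.4% against Adβgal. For Adβgal against untreated 2.84% were higher and 4.17% lower, and 1.72% and 2.16% without those arrays.

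Other receptors of the same ligand families moved in both directions. Of 31 measured members, 3 were higher and 4 lower with AdNkx6.1 against untreated (9.68% and 12.9%, beside 16.9% and 13.8% of all genes). Against Adβgal 3 were higher and 1 lower (9.68% and 3.23%, beside 16.6% and 8.48%). With Adβgal replicates 4, 5 and 6 left out, the counts were 3 and 5 against untreated, and 3 and 2 against Adβgal. The median changes with all arrays were -0.02 and -0.08. Adora1, the Gi-coupled adenosine A1 receptor, was 4-fold higher with AdNkx6.1 than with Adβgal (9.06 ± 0.13 against 7.06 ± 0.29, log2 change 2.00 ± 0.14, adjusted p = 3.13e-08) and 3.89-fold higher than untreated (7.10 ± 0.23). Adra2b, the alpha-2B adrenoceptor, was 2.74-fold higher with AdNkx6.1 (7.23 ± 0.15 against 5.78 ± 0.59 with Adβgal, adjusted p = 0.000102), so it stood opposite in sign to Adra2a against untreated, at 0.82 against -0.71. Ffar2, a receptor for short-chain fatty acids, was 1.69-fold higher with AdNkx6.1 than with Adβgal (adjusted p = 2.59e-06) and 1.41-fold lower with Adβgal than untreated (adjusted p = 0.00215). The somatostatin receptor Sstr1 was 2.09-fold lower with AdNkx6.1 than untreated (5.93 ± 0.30 against 6.99 ± 0.22, adjusted p = 0.00229), and so was Adcyap1r1, the PACAP receptor, by 1.34-fold (adjusted p = 0.00492). With Adβgal against untreated 2 of the 31 were lower (6.45%, beside 4.17% of all genes), at a median of -0.04, and 1 without those arrays.

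Of 50 further islet receptors measured, 2 were higher and 7 lower with AdNkx6.1 against untreated (4% and 14%, beside 16.9% and 13.8% of all genes), at a median of -0.08, so the lower share was near that of all genes. When Adβgal replicates 4, 5 and 6 were left out, the counts were 6 higher and 10 lower. Both subunits of the GABA-B receptor were among the lower ones, Gabbr1 by 1.6-fold (adjusted p = 0.00431) and Gabbr2 by 1.39-fold (adjusted p = 0.000958), and Gabbr2 was also 1.37-fold lower with Adβgal than untreated (adjusted p = 0.00685). The vasopressin receptor gene Avpr1b was 2.03-fold lower with AdNkx6.1 than untreated (adjusted p = 0.00263). The sphingosine phosphate receptor gene S1pr2 was 1.68-fold higher (9.56 ± 0.21 against 8.81 ± 0.06, adjusted p = 9.28e-05), and also 1.51-fold higher than with Adβgal. The adhesion receptor gene Adgrg1 was 1.32-fold higher with AdNkx6.1 than with Adβgal (adjusted p = 0.00197). With AdNkx6.1 against Adβgal 3 of the 50 were higher and 1 lower, and 4 and 5 without those arrays. With Adβgal against untreated 1 was higher and 4 lower, and 0 and 2 without them.

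Of 17 measured genes of ligands and of enzymes that make transmitters, 8 were lower and 1 higher with AdNkx6.1 against untreated (47.1% and 5.88%, beside 13.8% lower and 16.9% higher of all genes), at a median of -0.19. Among the enzyme genes called were Ddc, lower with AdNkx6.1 than untreated (-0.82), and Dbh, lower with Adβgal than untreated (-0.43). With Adβgal replicates 4, 5 and 6 left out, 8 were lower and 2 higher. With Adβgal against untreated 3 were lower (17.6%, beside 4.17% of all genes), and 1 without those arrays. With AdNkx6.1 against Adβgal 4 were higher and 3 lower (23.5% and 17.6%, beside 16.6% and 8.48%), and 3 and 4 without them. Pyy, the peptide YY gene, was 1.52-fold lower with AdNkx6.1 than untreated (adjusted p = 9.28e-05), and Sst, the somatostatin gene whose product binds Sstr2 and Sstr3, 1.2-fold lower (13.96 ± 0.05 against 14.22 ± 0.12, adjusted p = 0.0053). Gcg, which yields glucagon for Gcgr and GLP-1 for Glp1r, changed by -0.02 (adjusted p = 0.9). Gip, the ligand gene of Gipr, was 1.8-fold higher with AdNkx6.1 than with Adβgal (7.55 ± 0.17 against 6.71 ± 0.72, adjusted p = 0.0335), a call lost when any of 6 arrays was left out singly (replicates 1, 3, 4 and 5 of AdNkx6.1, and 2 and 6 of Adβgal), with only the 2 groups fitted and without Adβgal replicates 4, 5 and 6. Gal, the galanin gene, was 2.26-fold higher with AdNkx6.1 than with Adβgal (adjusted p = 0.00156) and 2.24-fold lower with Adβgal than untreated (adjusted p = 0.00931). When Adβgal replicates 4, 5 and 6 were left out, these changes were 0.72 and -0.70, against 1.18 and -1.16 with all arrays.

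**Figure D4:**
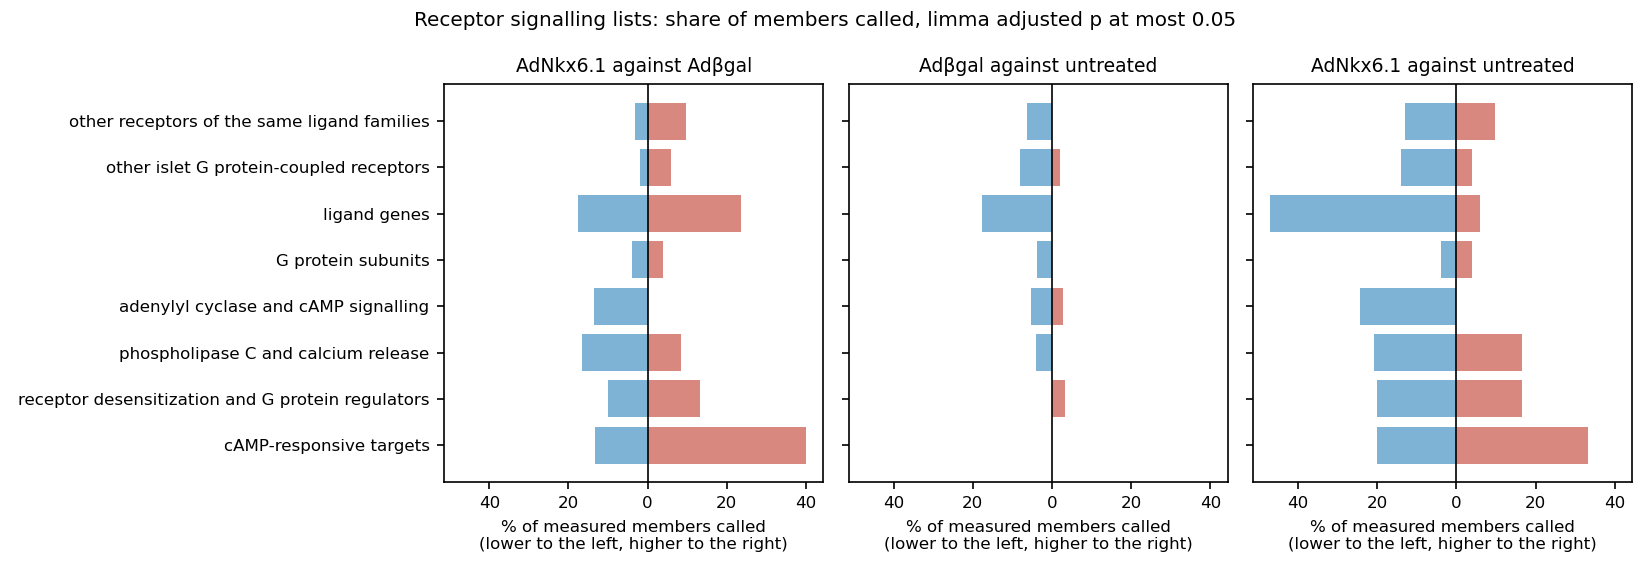
Share of the measured members of 8 signalling lists (horizontal axis, percent) called lower (left) and higher (right) in the 3 comparisons by limma at an adjusted p of 0.05. The ligand gene list, which also holds enzymes that make transmitters, shows 8 of 17 lower for AdNkx6.1 against untreated, and cyclic AMP signalling genes 9 of 37 lower and 0 higher.

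Of 26 measured G protein subunit genes, 1 was higher and 1 lower with AdNkx6.1 against untreated (3.85% each, beside 16.9% and 13.8% of all genes), and 3 and 4 without Adβgal replicates 4, 5 and 6. Against Adβgal 1 was higher and 1 lower, and 2 and 3 without those arrays. The 2 called against untreated with all arrays were Gng13, 2.06-fold higher (adjusted p = 0.00587), and Gng12, 1.28-fold lower (adjusted p = 0.00982). Those called against Adβgal were Gng7, higher, and Gngt2, lower, and neither call held without Adβgal replicates 4, 5 and 6. Against untreated the alpha subunit gene of Gs, Gnas, changed by -0.12 ± 0.06 (adjusted p = 0.134), and Gnai2 of Gi by -0.09 ± 0.08 (adjusted p = 0.415). Against Adβgal they changed by 0.04 and 0.06 and were not called. Gnai1, also of Gi, changed by -0.56 ± 0.31 against untreated (adjusted p = 0.201) and -0.18 ± 0.30 against Adβgal (adjusted p = 0.714). With Adβgal replicates 4, 5 and 6 left out, Gnai1 was called lower in both, at -0.56 (adjusted p = 0.00452) and -0.84 (adjusted p = 0.00117). The change against untreated was the same with all arrays, and only the shared spread differed. The probe set of the Gq gene Gnaq was dim, at a mean log2 intensity of 4.37 with AdNkx6.1 and 4.70 untreated.

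Of 37 genes of cyclic AMP signalling, 9 were lower with AdNkx6.1 than untreated and 0 higher (24.3% and 0%, beside 13.8% lower and 16.9% higher of all genes), with a median of -0.12. At an unadjusted p under 0.05, limma gave 12 lower and 0 higher. When Adβgal replicates 4, 5 and 6 were left out, the counts were 13 lower and 1 higher. Pde3b, a phosphodiesterase that degrades cyclic AMP in beta cells, was 2.06-fold lower than untreated (9.39 ± 0.24 against 10.44 ± 0.12, adjusted p = 4.89e-06) and 1.6-fold lower than with Adβgal (adjusted p = 0.000235). Rapgef4, the cyclic AMP sensor Epac2 that acts beside protein kinase A downstream of GLP-1, was 1.67-fold lower with AdNkx6.1 than untreated (10.78 ± 0.22 against 11.52 ± 0.14, adjusted p = 0.000349). Akap12, which anchors protein kinase A, was 1.44-fold lower (adjusted p = 0.000249). The cyclase genes Adcy5, Adcy6 and Adcy8 were not called in this comparison, with changes of -0.22, -0.04 and -0.74 and adjusted p of 0.457, 0.787 and 0.0514. The last was near the threshold. Adcy8 was called lower in 4 of the fits that left out 1 array and under 6 other settings. Without Adβgal replicates 4, 5 and 6 its adjusted p was 0.0183. Against Adβgal 5 of the 37 were lower and 0 higher by limma (11 lower and 2 higher at an unadjusted p under 0.05), and 8 lower and 2 higher without those arrays. The shares with all arrays were 13.5% lower and 0% higher, beside 8.48% and 16.6% of all genes. With Adβgal against untreated 1 of the 37 was higher and 2 lower, and 1 and 0 without those arrays. The lower ones were Rapgef4 (-0.445, adjusted p = 0.0381) and Akap12 (-0.30, adjusted p = 0.0403). These calls were lost in 8 and 11 of the fits that left out 1 array. Between the viruses Rapgef4 changed by -0.30 and was not called (adjusted p = 0.0891).

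Chrm3 and P2ry1 act through phospholipase C. Of 24 listed genes of phospholipase C, calcium release and further kinases and cation channels, 4 were higher and 5 lower with AdNkx6.1 against untreated (16.7% and 20.8%, beside 16.9% and 13.8% of all genes). Not every listed gene, Nalcn and Prkcz among them, is a step of that arm. Against Adβgal 2 were higher and 4 lower (8.33% and 16.7%, beside 16.6% and 8.48%). With Adβgal replicates 4, 5 and 6 left out, the counts were 7 higher and 6 lower against untreated, and 7 higher and 5 lower against Adβgal. The balance of calls turned in both, while the changes themselves did not turn as a set. With all arrays 14 of 24 changes were above 0 in each comparison. The median was 0.05 in both settings against untreated. Against Adβgal it was 0.12 with all arrays and 0.10 without those 3. Plcb1, a phospholipase C activated by Gq, was 1.53-fold lower with AdNkx6.1 than untreated (10.67 ± 0.26 against 11.29 ± 0.06, adjusted p = 0.00174) and 1.43-fold lower than with Adβgal (adjusted p = 0.00508). Plcb3, another phospholipase C of this kind, changed by 0.50 ± 0.28 against untreated (adjusted p = 0.206) and 0.41 ± 0.27 against Adβgal (adjusted p = 0.292). It was called higher in both without Adβgal replicates 4, 5 and 6 (0.50, adjusted p = 0.00105, and 0.67, adjusted p = 0.000576), and also without Adβgal replicate 5 alone. Nalcn, a sodium leak channel, was 2.89-fold lower than untreated (adjusted p = 1.28e-07) and 2.5-fold lower than with Adβgal (adjusted p = 4.43e-07), and the diacylglycerol kinase gene Dgkb 2.69-fold lower than untreated (adjusted p = 9.65e-05). Trpm4, a calcium-activated cation channel, was 2.02-fold higher than untreated (adjusted p = 0.000104). For Adβgal against untreated 1 of the 24 was called, Prkcb, 1.19-fold lower (adjusted p = 0.0267), a call lost without untreated replicate 2, 4 or 5, with the mean of probe sets, with the replicate number as a block, with 2 groups fitted and without Adβgal replicates 4, 5 and 6.

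Among 30 genes that end or limit receptor signals, 5 were higher and 6 lower with AdNkx6.1 against untreated (16.7% and 20%, beside 16.9% and 13.8% of all genes), and 7 and 9 without Adβgal replicates 4, 5 and 6. Against Adβgal 4 were higher and 3 lower, and 7 and 4 without those arrays. The receptor kinase gene Grk6 and the beta-arrestin gene Arrb2, whose products switch off and internalise active receptors, were each 1.48-fold higher with AdNkx6.1 than untreated (adjusted p = 0.00174 and 0.000175). Rgs16, which speeds the shut-off of Gi and Gq, was 1.75-fold higher than untreated (adjusted p = 0.000372) and 1.88-fold higher than with Adβgal (adjusted p = 1e-04), while Rgs7 was 1.56-fold lower than untreated (adjusted p = 3.39e-05) and Rgs17 1.44-fold lower than with Adβgal (adjusted p = 0.000216). Of 15 measured genes that respond to cyclic AMP, 6 were higher and 2 lower with AdNkx6.1 against Adβgal and 5 higher and 3 lower against untreated, with medians of 0.40 and 0.21. The shares were 40% and 13.3% against Adβgal (beside 16.6% and 8.48% of all genes) and 33.3% and 20% against untreated (beside 16.9% and 13.8%). When Adβgal replicates 4, 5 and 6 were left out, the counts were 6 and 2 with a median of 0.11 against Adβgal, and 7 and 3 with a median of 0.21 against untreated. The list holds Nr4a1 and Nr4a3 of the study's title, both called higher in these 2 comparisons, so the count is not independent of that choice. With Adβgal against untreated limma called 0 of the 15, and 0 had an unadjusted p under 0.05.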

How the data were processed

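Gene expression was measured on 16 one-colour Affymetrix arrays. The deposited table holds intensity values on a linear scale, 6.25 to 35765, that the authors made with RMA, per the submitters' processing notes; the version is not given in the sources used here. RMA makes arrays comparable and gives 1 value per probe set. No detection call was used, so folds of dim probe sets are inexact. The number of arrays limits the precision.

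Log2 of each value was taken with no pseudocount and no filter. Of 31099 probe sets 57 were controls, and 20826 had 1 gene symbol, giving 14217 genes by the brightest probe set. A linear model with moderated variance (lmFit and eBayes of limma 3.58.1, R 4.3.3) was fitted once over the 3 groups, for genes and again for 31042 probe sets, with Benjamini-Hochberg adjustment over all features, 2-sided, at 0.05. Changes are the first-named group minus the second, with SE; levels are mean ± SD, and 95% intervals come from the fit. The fit was tested on simulated data. Tables and figures used pandas 2.3.3 and matplotlib 3.10.9 in Python 3.11.15.

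Receptors and gene lists were chosen with earlier results of these data known, so list counts stand beside those of all genes and no list test was run. Named genes are the receptors, up to 4 called members of each list by smallest p, 15 paired signalling genes, and the 2 nearest profiles of each called receptor. The alternatives were other probe set, scaling, filter, variance and sample choices, each array left out in turn, Adβgal replicates 4, 5 and 6 left out, and the replicate number as a block. The treatment protocol states 5 replicates per condition, whereas 6 Adβgal arrays are in the table and were used.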

Additional observations from a re-analysis of the deposited data

Results flagged for a closer look

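In the 33 groups of 5 or 6 arrays formed by 11 probe sets and 3 conditions, 4 held an array far from the others by Dixon's ratio of gap to range; chance gives this in about 5% of groups. P2ry1 on Adβgal replicate 5 was 7.42, against 8.73 for the next array, and the 2 comparisons that use this group depend on it as given above. Chrm3 on Adβgal replicate 4 was 8.33 on the brighter probe set, against 8.99 for the next, and without that array the change for AdNkx6.1 against Adβgal was -0.79. The dimmer Chrm3 probe set was 7.09 on untreated replicate 5, against 6.49 for the next. Gipr on AdNkx6.1 replicate 3 was 12.38, against 12.003 for the next.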

How the results depend on the processing

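For AdNkx6.1 against untreated 6 receptors were called in each fit that left out 1 array, and 4 to 6 under the other settings, the 4 arising where genes below the median level, Chrm3 and P2ry1 among them, were not tested. For AdNkx6.1 against Adβgal the count of 1 receptor was 3 without Adβgal replicates 4, 5 and 6, 2 with array weights, and 0 with the mean of probe sets, with the filter on dim genes and with only the 2 groups fitted (limma; 1, 1 and 2 receptors at an unadjusted p under 0.05). It was 0 to 2 with 1 array left out; of 11 probe sets 1 was called, against 5 without Adβgal replicates 4, 5 and 6, 0 with 2 groups fitted (3 unadjusted), and 0 to 3 with 1 array left out. For Adβgal against untreated the 4 receptors became 2 without those replicates and 2 with 2 groups fitted, and 2 to 6 with 1 array left out. The 6 probe sets became 3, 3 and 3 to 8 in the same order. Receptors called there were 6 with array weights and 6 with arrays centred on their median.

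Small changes turned in sign with 1 array left out. For AdNkx6.1 against Adβgal, Adra2a ran from -0.10 to 0.0377, Gcgr from -0.0946 to 0.0004, Glp1r from -0.16 to 0.0004 and Sstr3 from -0.14 to 0.0559; for AdNkx6.1 against untreated, Gipr ran from -0.13 to 0.0042. Over receptors, comparisons and settings, 551 values kept direction and side of the threshold, 17 lost a call, 16 gained one and 10 turned in sign. Over all genes, AdNkx6.1 had 3560 calls against Adβgal and 4360 against untreated, and Adβgal had 997 against untreated. The AdNkx6.1 counts were 2165 and 2657 with the filter (fewer genes tested), and the second was 7469 with array weights. With only the 2 groups fitted, AdNkx6.1 against untreated had 3317 genes higher and 2933 lower, against 2404 and 1956 with the 3 groups. Those of Adβgal against untreated were 552 without Adβgal replicates 4, 5 and 6, 1790 with array weights, 1752 with arrays centred on their median, 521 with 2 groups fitted, and 509 to 1503 with 1 array left out; the cause was not tested. Centring removes the difference in median intensity between arrays given above. It left 17.9% of these calls higher, against 40.5%, and 38.9% against 55.1% for AdNkx6.1 against untreated. The median change over all genes was then -0.10, against -0.04, and -0.09, against -0.01, in the same order.

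Same-numbered arrays did not stand out in their deviations from the group means. Of 15 same-numbered pairs 3 had deviations correlated above 0.1 (range -0.387 to 0.249), and of 70 pairs of other numbers 18 did, reaching 0.33. These correlations cannot tell whether same-numbered arrays share an islet isolation. With the replicate number as a block, Adβgal against untreated had 393 genes and 3 receptors called, Glp1r being lost at an adjusted p of 0.0638, and no other receptor call changed.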
